A study of Bos taurus with 81 samples.

Results

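Open chromatin was compared between the inner cell mass (ICM) and the trophectoderm (TE) of the bovine blastocyst, over the 29 autosomes. Peaks of 3 ATAC-seq libraries of each lineage were laid over one another, and the covered sequence was divided into stretches, a stretch being an unbroken run of bases with the same call. An ICM-only stretch lay under a peak in all 3 ICM libraries and under none of the 3 TE libraries, a TE-only stretch was the reverse, and a shared stretch lay under a peak in all 6. There were 33777 ICM-only, 33959 TE-only and 62754 shared stretches, 130490 in all. They were built from peaks of 6 of the 81 libraries of the series, which hold 4930009 peaks in all lists together. H3K4me3, H3K27ac, H3K27me3 and H3K9me3 peaks of ICM and TE, from 2 libraries per mark and lineage, were then read at each class. These 16 lists played no role in choosing the stretches.

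The embryos were produced in vitro from slaughterhouse oocytes and frozen semen, and blastocysts were collected 172 h after insemination. Both lineages belong to the control arm of the series, without the transcription inhibitor used at the 8-cell stage. The ICM was freed by immunosurgery, in which an antibody and complement lyse the outer cells, and the TE was cut off with a micro scalpel. Each library was made from about 1000 to 1500 blastomeres. Lineage and isolation method therefore cannot be told apart. Nothing in the labels says that the libraries of a group came from separate cultures, so the spread between them may be technical.

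The ICM gives rise to the epiblast and hypoblast and so to the embryo proper and the yolk sac, while the TE is the outer epithelium that forms the fetal part of the placenta. ATAC-seq uses a transposase that inserts into accessible DNA, which marks active promoters, enhancers and other sites where nucleosomes are displaced. H3K4me3 is found at active promoters and H3K27ac at active promoters and enhancers. H3K27me3 is laid down by Polycomb complexes over silenced developmental genes, and H3K9me3 marks constitutive heterochromatin and silenced repeats.

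The 3 ICM lists held 100982 to 118588 autosomal peaks and covered 81.0 to 96.2 Mb of 2488 Mb. The 3 TE lists held 97691 to 113554 peaks and covered 82.9 to 97.5 Mb, so the lengths of the lists overlapped. In both lineages the library numbered 2 had the widest peaks, with a median of 750 bp in ICM and 800 bp in TE. For libraries 1 and 3 the medians were 500 and 500 bp in ICM and 650 and 550 bp in TE. Similarity was taken as the bases common to 2 lists over all bases that either covers (the Jaccard index). It was 0.618 to 0.654 within a lineage (6 pairs) and 0.436 to 0.450 between lineages (9 pairs). The lists give no read totals, so depth is unknown. In such bulk material, fewer cells with an open site and weaker opening per cell cannot be told apart.

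Of the 161.1 Mb open in at least 1 of the 6 lists, 6.49% was ICM-only (10.45 Mb), 6.39% was TE-only (10.3 Mb) and 23.8% was shared (38.4 Mb). A further 20.4 Mb was found in a single ICM list and 23.1 Mb in a single TE list, with no support from the other 5. The lineage-only classes were thus of nearly equal size, with 49.9% of the lineage-only stretches and 50.4% of their bases on the ICM side. Which lineage held more bases was not stable: the ICM part was 49.97% without ICM library 2, 44.6% without TE library 1 and 44.7% without TE library 3. It was 48.8% when 2 of 3 libraries sufficed and 44.3% in bins of 1 kb.

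The lineage-only classes held both separate sites and edges. A stretch was called free-standing where no peak of the other lineage touched it, and a flank where it directly abutted such a peak in at least 1 library and so formed an edge of that opening. Few flanks, 5.50% of the ICM-only and 6.53% of the TE-only ones, lay next to a base open in all 3 libraries of the other lineage. Free-standing stretches made up 63.5% of the ICM-only class (21449) and 47.6% of the TE-only class (16171). They held 82.1% of the ICM-only bases and 71.8% of the TE-only bases. Among free-standing stretches the ICM held the larger part, 57.01% of the stretches and 53.7% of the bases. Of 161180 merged open regions of the 6 lists, 12.3% held a free-standing ICM-only stretch, 8.84% a free-standing TE-only stretch and 30.0% a shared stretch.

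Widths separated these kinds. Flanks were narrow in both classes, with a median of 100 bp, and 38.7% of the ICM-only and 37.8% of the TE-only flanks were a single 50 bp step of the grid on which peak edges lie. Free-standing stretches had a median of 350 bp in ICM (quartiles 250 and 500 bp) and 400 bp in TE (300 and 550 bp). Shared stretches had a median of 450 bp (300 and 800 bp) and a long upper tail. A width of 1 kb or more was reached by 467 free-standing ICM-only, 781 free-standing TE-only and 11296 shared stretches. The longest measured 2600, 3050 and 9900 bp respectively. Long free-standing openings were therefore more numerous on the TE side although free-standing stretches as a whole were more numerous on the ICM side. The whole lists differed in the same way. At each library number the TE list had the wider median peak and the ICM list held more peaks. What part this played was not tested.

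**Figure D1:**
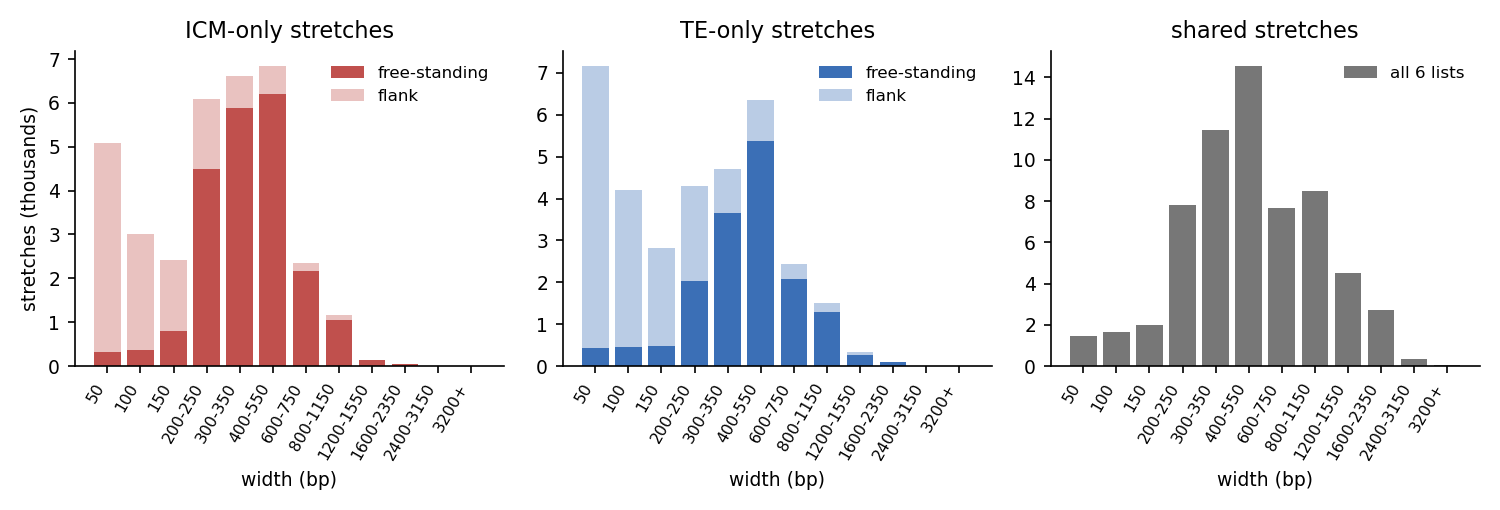
Number of stretches (vertical axis, in units of 1000, different in each panel) by width in bp (horizontal axis, bins of unequal size) for ICM-only, TE-only and shared stretches. Dark bars are free-standing stretches and pale bars are flanks, which abut a peak of at least 1 library of the other lineage; the 50 bp bin of both lineage-only classes is nearly all flanks (4767 of 5088 and 6730 of 7170).

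The score deposited with each peak, a whole number whose name the lists do not give, ranked peaks within a list. Peaks with a free-standing lineage-only stretch lay near the middle of their own list, at a median percentile of 42.7 to 47.4 over the ICM lists and 43.9 to 50.2 over the TE lists. Peaks with a shared stretch had medians of 67.7 to 73.7 in the 6 lists, and peaks with a lineage-only flank 68.1 to 76.1. By this score, openings found in 1 lineage were thus mid-ranking peaks, and the flanks belonged to higher-ranking ones. The peaks also differed in width. In ICM library 1 the median was 500 bp with a free-standing stretch, 750 bp with a shared one and 850 bp with a flank. In TE library 1 these medians were 650, 850 and 900 bp. The score was not divided by width, and the part of width in the ranks was not tested. When the higher-scoring part of each list alone was kept (its upper 50%), 16962 ICM-only, 16260 TE-only and 32113 shared stretches were found.

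The classes were next read in libraries that had not chosen them. Stretches were chosen again on 2 ICM and 2 TE lists, in each of the 9 ways of leaving out 1 list per lineage. Of the bases of free-standing ICM-only stretches, 76.4 to 82.9% (median 76.9%) lay under a peak of the ICM list left out, and 4.79 to 7.88% (median 7.28%) under a peak of the TE list left out. For free-standing TE-only stretches the values were 72.7 to 83.4% (median 75.03%) in the left-out TE list and 5.27 to 6.94% (median 6.33%) in the left-out ICM list. Left-out lists of the 2 lineages did not overlap at either class. The higher values, above 82% in ICM and above 83% in TE, came from the wide-peaked library 2 of the lineage. Shared stretches were covered to 92.6 to 96.7% in every left-out list.

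Whole blastocysts contain both lineages, and their 3 ATAC lists (BL) covered much of both classes. At free-standing ICM-only bases, BL coverage was 53.3%, 51.3% and 68.2% in libraries 1 to 3. At free-standing TE-only bases it was 50.2%, 60.5% and 73.5%. Library 1 covered slightly more of the ICM-only class and libraries 2 and 3 more of the TE-only class, so BL did not side with either lineage throughout. Shared bases were covered to 95.1%, 96.9% and 99.2%. The lists differed in length, at 80.8, 103.3 and 116.7 Mb, and library 3, the longest, was highest at every class.

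**Figure D2:**
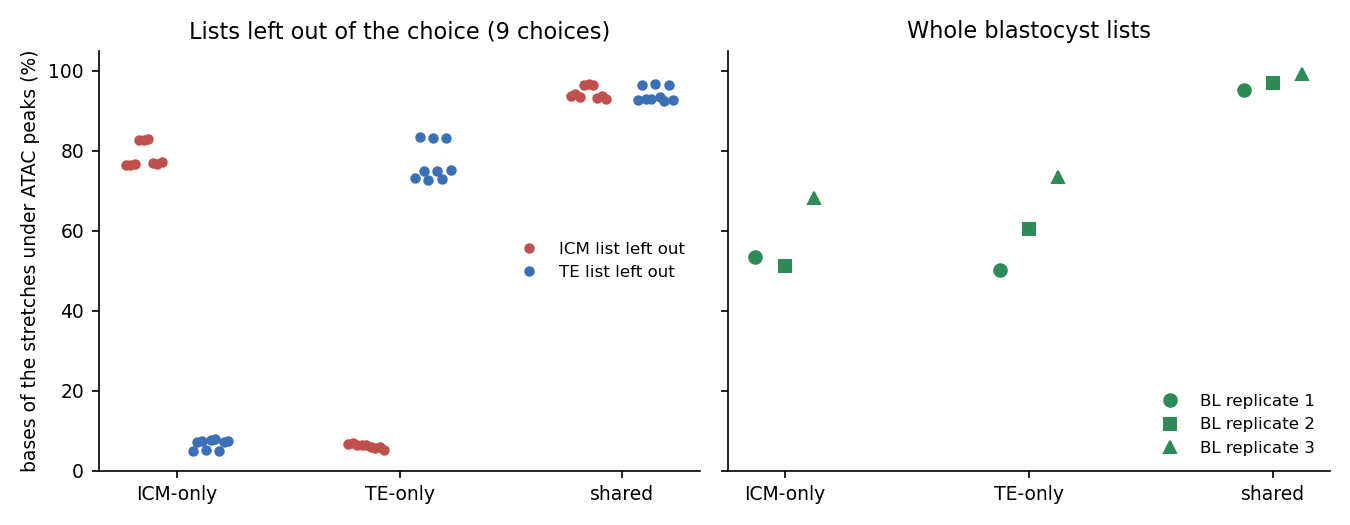
Percent of the bases of free-standing ICM-only, free-standing TE-only and shared stretches (horizontal axis) under ATAC peaks (vertical axis, 0 to 100%). The left panel gives the 9 choices with 1 ICM and 1 TE list left out, with left-out ICM lists at 76.4 to 82.9% and left-out TE lists at 4.79 to 7.88% of the ICM-only class; the right panel gives the 3 whole blastocyst lists.

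H3K27ac followed the lineage in which a site was open. At free-standing ICM-only stretches, 50.8% and 45.5% of the bases lay under H3K27ac peaks in the 2 ICM libraries, against 4.02% and 3.51% in the 2 TE libraries. At free-standing TE-only stretches the order turned, with 49.5% and 53.1% in TE against 12.8% and 11.2% in ICM. The lineages did not overlap at either class, and about the same part of each class carried the mark in its own lineage. Relative to the share of the autosomes that each list covered, this was a 12.6-fold ± 0.34 enrichment (SD, n = 2) for ICM at ICM-only bases and 21.7-fold ± 0.34 for TE at TE-only bases. The other lineage was also above its autosomal level, at 1.60-fold ± 0.21 for TE at ICM-only bases and 3.15-fold ± 0.15 for ICM at TE-only bases.

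H3K4me3 was sparse at lineage-only openings and lay mainly on the TE side. Free-standing ICM-only bases were covered to 3.67% and 3.69% in ICM and to 1.26% and 1.19% in TE. Free-standing TE-only bases were covered to 13.95% and 11.1% in TE and to 1.01% and 1.29% in ICM. The libraries of the 2 lineages did not overlap at either class, and coverage by the own lineage's promoter mark was higher at TE-only than at ICM-only openings, 12.5% ± 2.0 against 3.68% ± 0.018 (SD, n = 2). In the lineage where the site was closed, H3K4me3 at these free-standing stretches was below its autosomal level, at 0.667-fold ± 0.0075 for TE at ICM-only bases and 0.750-fold ± 0.11 for ICM at TE-only bases. With flanks included it was above that level, at 1.69-fold ± 0.018 and 1.85-fold ± 0.18.

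H3K27me3 took the opposite direction to the active marks. At free-standing ICM-only bases it covered 16.5% and 16.4% in TE against 10.99% and 10.75% in ICM. TE-only bases had 13.6% and 13.5% in ICM against 7.61% and 8.02% in TE. The Polycomb mark was therefore more extensive in the lineage whose chromatin was closed, at both classes and with no overlap between libraries. In that lineage it stood at 1.498-fold ± 0.044 (TE) and 1.37-fold ± 0.0085 (ICM) of its autosomal level. In the lineage with the open site it was 1.10-fold ± 0.018 in ICM at ICM-only bases and 0.712-fold ± 0.0078 in TE at TE-only bases.

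H3K9me3 was more extensive at ICM-only than at TE-only openings in both lineages. It covered 7.23% and 11.85% of free-standing ICM-only bases in ICM and 9.003% and 8.923% in TE, with the TE values between the 2 ICM values. At free-standing TE-only bases it covered 4.06% and 5.82% in ICM and 4.37% and 4.12% in TE, again with overlap. Relative to the autosomal coverage of each list the lineages did not overlap, at 2.09-fold ± 0.32 in ICM and 1.45-fold ± 0.016 in TE at ICM-only bases, and 1.09-fold ± 0.063 and 0.686-fold ± 0.032 at TE-only bases. Each of the 4 H3K9me3 libraries, ICM and TE alike, thus covered more of the ICM-only than of the TE-only bases. The ICM library numbered 1 covered less of the autosomes (3.88%) than the other 3 (5.13 to 6.20%), and the spread between the ICM libraries was wide.

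**Figure D3:**
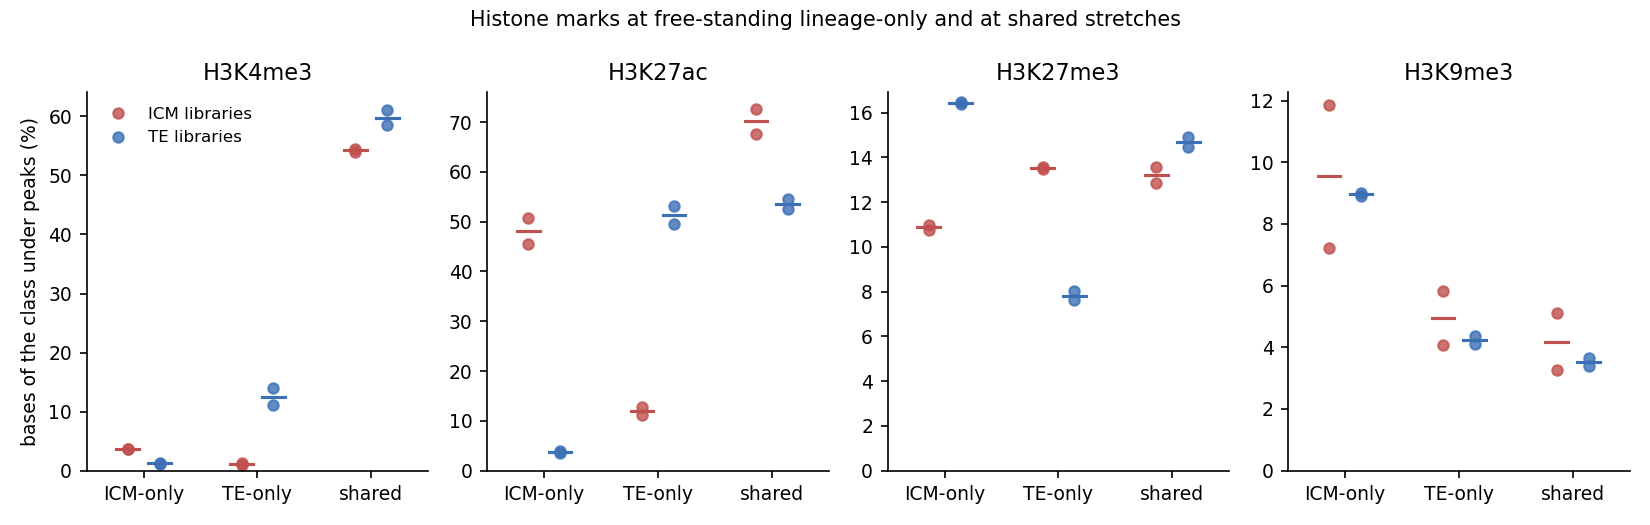
Percent of bases under peaks of each histone mark (vertical axis, from 0, its range different in each panel) at free-standing ICM-only, free-standing TE-only and shared stretches. Points are libraries (2 per mark and lineage) and bars their means; H3K27ac is near 50% in the lineage where the site is open and at 3.51 to 12.8% in the other.

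To test these contrasts, the log2 ratio of coverage at ICM-only to coverage at TE-only bases was taken in each mark library. Each list was thus compared with itself, which need not remove all effect of its length. Over all lineage-only stretches, flanks included, the ICM mean minus the TE mean of this ratio was 3.498 for H3K4me3 (pooled SD 0.15, n = 2 per lineage) and 4.86 for H3K27ac (0.12). It was -1.34 for H3K27me3 (0.046) and -0.19 for H3K9me3 (0.12). The first 3 differences were many times the spread between replicates, and that of H3K9me3 was of the order of that spread. Summed over the 4 marks, the absolute difference was 9.88, with an exact permutation p of 0.0123, the smallest possible (0.0247 after Benjamini-Hochberg adjustment over the 2 joint tests). With 2 libraries per lineage, the smallest exact two-sided p of a single mark is 0.333, so the test speaks for the marks jointly.

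The contrast of the active marks was larger without flanks. Among free-standing stretches the difference was 5.03 for H3K4me3 and 5.78 for H3K27ac, while H3K27me3 was -1.39. Counting stretches with any base under the mark gave 2.20 for H3K4me3 and 3.55 for H3K27ac, in place of 3.498 and 4.856. Mark lists shortened by score to one length gave 3.00 for H3K4me3. At ICM-only flanks, H3K4me3 covered 17.5% ± 0.099 in ICM and 11.7% ± 0.092 in TE. At TE-only flanks it covered 25.4% ± 1.5 in TE and 7.13% ± 0.66 in ICM (SD, n = 2). The flanks thus carried more promoter mark in either lineage than the free-standing stretches did.

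Coverage by the active marks differed with width, though not in one direction. At free-standing stretches of 800 bp or more, H3K27ac of the own lineage covered 70.4% of the bases in the ICM-only class (1219 stretches) and 70.8% in the TE-only class (1653). At 200 to under 400 bp it covered 37.8% and 36.8%, and below 200 bp 42.3% and 41.0%. H3K27ac of the other lineage did not follow this order. It was highest below 200 bp, at 6.745% of ICM-only bases in TE and 18.8% of TE-only bases in ICM. At 200 to under 400 bp these values were 4.47% and 12.03%, and at 800 bp or more 2.63% and 11.2%. The classes parted at H3K4me3, which reached 20.8% of the bases of TE-only stretches of 800 bp or more and 5.86% of ICM-only stretches of that width. At 200 to under 400 bp these shares were 8.14% and 3.08%, and below 200 bp 14.5% and 6.12%. H3K27me3 of the closed lineage was likewise lowest at 200 to under 400 bp, with 13.7% in TE at ICM-only and 11.99% in ICM at TE-only stretches. It was 18.2% and 14.2% below 200 bp and 20.4% and 17.2% at 800 bp or more.

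Taken stretch by stretch, a stretch was called marked in a lineage if at least 50% of it lay under peaks in both of that lineage's libraries, and free of the mark if no base of it did in either. Of the free-standing ICM-only stretches, 7016 (32.7%) had H3K27ac in both ICM and neither TE library, and 12 had the reverse. Over all merged open regions, which can be wider than a stretch, the corresponding shares by the same rule were 9.81% and 3.76%. Of the free-standing TE-only stretches, 4508 (27.9%) had H3K27ac in both TE and neither ICM library, and 118 (0.730%) had the reverse. For H3K4me3, 307 ICM-only stretches (1.43%) had the mark in both ICM and neither TE library, where 0.433% of all merged regions did. The TE counterpart was 1055 TE-only stretches (6.52%), where 1.48% of all merged regions did.

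Called in the same way, H3K27me3 was found in both TE and neither ICM library at 1105 free-standing ICM-only stretches (5.15%), against 3.33% of all merged regions, and in both ICM and neither TE library at 281 (1.31%), against 1.85%. At free-standing TE-only stretches, 713 (4.41%) had it in ICM alone and 206 (1.27%) in TE alone. Some sites carried H3K27ac where they were open and H3K27me3 where they were closed. There were 305 such stretches in the ICM-only class (1.42%, against 0.372% of all merged regions), 27.6% of its 1105 with H3K27me3 in TE alone and 4.35% of its 7016 with H3K27ac in ICM alone. That 27.6% was below the 32.7% of the whole free-standing ICM-only class with H3K27ac in ICM alone. The TE-only class had 310 (1.92%, against 0.231%), which were 43.5% of its 713 and 6.88% of its 4508, where 27.9% of its whole free-standing class had H3K27ac in TE alone. The opposite pairing was met at 1 stretch in each class. H3K9me3 was in both ICM and neither TE library at 635 ICM-only stretches (2.96%) and in TE alone at 534 (2.49%), against 1.55% and 1.8% of all merged regions.

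Combinations of marks were then counted within each lineage. In ICM, 36.8% of free-standing ICM-only stretches were marked by H3K27ac and not by H3K4me3, a combination known from enhancers, and 2.31% had both marks. TE carried H3K27ac without H3K4me3 at 34.3% of free-standing TE-only stretches and both marks at 6.77%. H3K27ac without H3K4me3 was not confined to lineage-only sites, being found at 29.2% of shared stretches in ICM and 16.8% in TE. None of the 4 marks reached this call, which needs both libraries, in the open lineage at 49.5% of the ICM-only and 49.7% of the TE-only stretches. In the closed lineage this share was 80.6% (TE at ICM-only) and 77.7% (ICM at TE-only). The closed lineages differed in residual H3K27ac: it stood without H3K4me3 at 2.48% of the ICM-only stretches in TE and at 8.998% of the TE-only stretches in ICM. No base lay under a peak of any of the 16 lists at 5950 ICM-only (27.7%), 4296 TE-only (26.6%) and 7158 shared stretches (11.4%). That rule depends on width, and shared stretches were wider (median 450 bp against 350 bp in ICM-only and 400 bp in TE-only). For the combinations in this paragraph, no share over all merged open regions was taken.

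The marks were also followed over 10 kb on either side of the centre of each stretch. H3K27ac of the open lineage formed a narrow peak. In ICM it covered 48.2% and 42.9% of ICM-only centres, 19.7% and 18.7% at 1 kb downstream in the order of the chromosome, and 10.5% and 10.0% at 10 kb. TE at TE-only stretches had 46.3% and 49.6% at the centre and 9.545% and 10.05% at 10 kb. In the closed lineage H3K27ac kept a small central peak at both classes. TE at ICM-only stretches had 4.71% and 4.23% at the centre, 2.93% and 2.71% at 500 bp upstream, 2.77% and 2.60% at 500 bp downstream, and 4.06% and 4.09% at 10 kb. ICM at TE-only stretches had 13.98% and 12.3% at the centre, 9.36% and 8.57% at 500 bp upstream, 9.20% and 8.61% downstream, and 9.57% and 8.81% at 10 kb.

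H3K27me3 varied little along these windows, being called in domains far wider than a stretch. In TE it covered 15.7% of ICM-only centres in either library and 13.4% and 13.7% of the positions at 10 kb. Around TE-only stretches TE showed a broad dip, with 7.30% and 7.92% at 1 kb upstream, 8.32% and 8.65% at the centre and 10.2% and 10.4% at 10 kb. ICM at the same stretches had 12.8% at the centre and 11.8% at 10 kb in both libraries. H3K9me3 of ICM rose toward ICM-only centres from 4.14% and 5.78% at 10 kb to 6.73% and 10.99%. That of TE rose there too, from 6.84% and 6.81% to 8.45% and 8.40%. Toward TE-only centres H3K9me3 of ICM rose from 3.38% and 4.60% to 3.93% and 5.41%. In TE it fell there from 5.19% and 5.08% to 4.38% and 4.09%. At shared centres it likewise rose in ICM and fell in TE. Peak edges of H3K27me3 and H3K9me3 lie on a 200 bp grid with no gap under 1200 bp, so their profiles cannot resolve a single stretch.

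**Figure D4:**
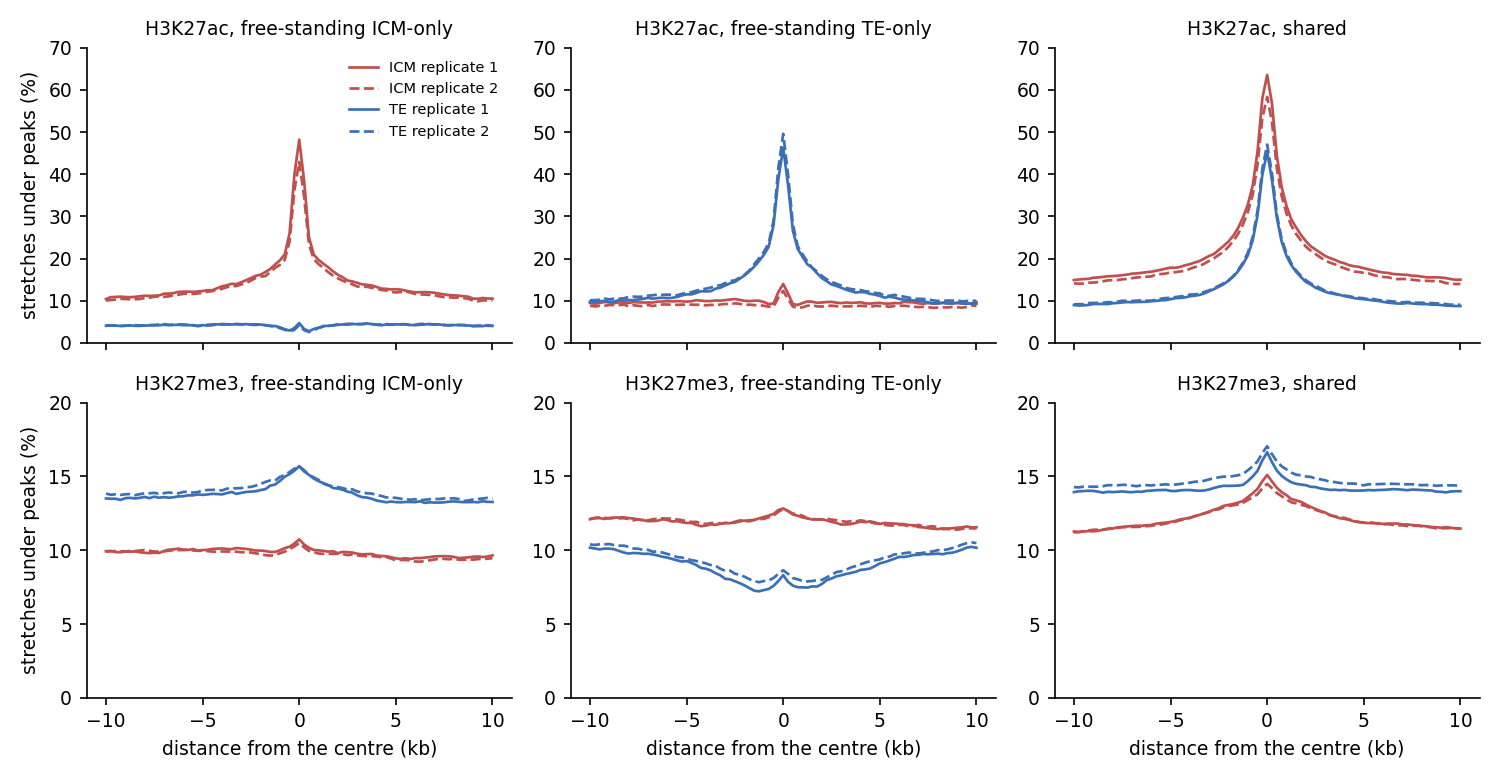
Percent of free-standing ICM-only, free-standing TE-only and shared stretches under H3K27ac peaks (upper row) and H3K27me3 peaks (lower row) by distance from the stretch centre in kb, at steps of 250 bp; each line is 1 library. H3K27ac of the open lineage falls from 42.9 to 49.6% at the centre to about 10% at 10 kb, and TE H3K27me3 dips around TE-only stretches.

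Shared stretches carried the most H3K4me3 of the 3 classes in both lineages, and the most H3K27ac in ICM. For H3K27ac of TE they were close to free-standing TE-only stretches, with 53.5% ± 1.4 against 51.3% ± 2.6 of bases, and 50.6% ± 1.1 against 52.2% ± 2.2 of stretches with any base under the mark (SD, n = 2). H3K4me3 covered 54.0% and 54.5% of shared bases in ICM and 61.1% and 58.5% in TE, which was 35.4-fold ± 0.37 and 32.5-fold ± 0.078 the autosomal level of these lists (SD, n = 2). H3K27ac covered 72.6% and 67.7% in ICM and 52.5% and 54.5% in TE. The percentages put ICM above TE for H3K27ac, while the enrichment over the autosomes put TE above ICM, 22.6-fold ± 0.16 against 18.4-fold ± 0.035. The ICM lists covered more of the autosomes (3.95% and 3.67% against 2.31% and 2.42%). H3K27me3 covered 13.6% and 12.9% in ICM and 14.5% and 14.9% in TE, and H3K9me3 3.26% and 5.11% against 3.66% and 3.41%.

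On the scale of log2 enrichment over the autosomes, ICM minus TE at shared bases was 0.13 for H3K4me3 (pooled SD 0.011) and -0.30 for H3K27ac (0.0076). The repressive marks differed by -0.0027 (H3K27me3, 0.039) and 0.68 (H3K9me3, 0.14). The summed absolute difference was 1.10, against 9.88 at lineage-only stretches, with an exact permutation p of 0.037 (adjusted 0.037). This call did not hold with mark lists shortened by score to one length, where the exact p was 0.0864 and the H3K27ac difference turned to 0.041. The signed sum over the 2 active marks was -0.17 with an exact p of 0.333, whereas at lineage-only stretches it was 8.35 with an exact p of 0.0556, the smallest possible over 36 arrangements.

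Shared stretches were also counted one by one. H3K27ac was called in both ICM and neither TE library at 6256 shared stretches (9.97%, against 9.81% of all merged open regions) and in both TE and neither ICM library at 1420 (2.263%, against 3.76%). The former share was near that of all merged regions, and the H3K27ac lists were longer in ICM. All 4 lists had the mark at 22547 (35.9%). No share over all merged regions was taken for calls in all 4 lists, nor for both active marks together or none of the 4 marks. H3K4me3 was called in all 4 lists at 20316 shared stretches (32.4%). It was called in TE alone at 2932 (4.67%, against 1.48% of all merged regions) and in ICM alone at 681 (1.08%, against 0.433%). TE thus exceeded ICM over all merged regions too, and the H3K4me3 lists were longer in TE. By the call in both libraries, both active marks were found together in ICM at 26.9% and in TE at 23.6% of shared stretches, and none of the 4 marks at 26.96% and 32.7%. H3K27ac in ICM alone with H3K27me3 in TE alone was found at 502 shared stretches (0.800%, against 0.372% of all merged regions), and the reverse at 234 (0.373%, against 0.231%).

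Single stretches illustrate these states, with coordinates on the ARS-UCD1.2 build. The longest free-standing ICM-only stretch, chr5:27956951-27959550 (2600 bp), was fully covered by H3K27ac in both ICM libraries and not covered in TE. H3K4me3 covered 32.7% and 17.3% of it in ICM and 0% in TE. H3K27me3 covered 100% of it in both TE libraries but also 86.5% and 100% in ICM, so at this site the 2 lineages shared the Polycomb mark and differed in acetylation and accessibility. BL covered 86.5%, 96.2% and 100%. The longest TE-only stretch under H3K27ac of TE alone, chr16:29658751-29661450 (2700 bp), showed the full exchange. There H3K27ac covered 100% in both TE libraries and 0% in ICM, H3K27me3 covered 100% in both ICM libraries and 0% in TE, and H3K4me3 covered 29.6% and 46.3% in TE alone.

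The other long lineage-only stretches differed widely in their marks. On the ICM side, chr9:54206201-54208550 (2350 bp) had H3K27ac over its full length in both ICM libraries and none of the other marks. At chr16:36692501-36694800 (2300 bp), H3K27ac covered 65.2% and 19.6% in ICM, and H3K27me3 covered 100% in both TE libraries and 69.6% and 0% in ICM. The remaining pair, chr14:8130351-8132700 (2350 bp) and chr19:21846001-21848300 (2300 bp), had no mark in any library. These 2 were also nearly closed in whole blastocysts, with BL coverage of 0%, 0% and 12.8% at the former and 0% in all 3 libraries at the latter.

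On the TE side, 3 of the 5 longest stretches were without any mark in all 16 lists. They were chr16:54000101-54003150 (3050 bp), chr11:10414151-10417000 (2850 bp) and chr2:27038301-27040950 (2650 bp). All 3 were open in whole blastocysts, with BL coverage of 31.2 to 72.1%, 31.6 to 89.5% and 47.2 to 79.2%. The first of them was among the highest-scoring peaks of the TE lists, at percentiles 99.8, 99.9 and 97.3. The percentiles were 93.0, 99.9 and 95.7 for the second and 92.0, 88.1 and 94.8 for the third. The fourth, chr20:31461451-31464150 (2700 bp), had H3K27ac over 20.4% of its length in TE library 2 alone and BL coverage of 92.6 to 98.1%. Wide stretches of 1 lineage in peaks of high score could thus lack all 4 marks as called here. What the score measures is not known, and read mapping at these sites was not tested.

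Among the shared stretches, the longest, chr5:26529801-26539700 (9900 bp), had H3K27ac over 98.0% and 93.4% of its length in ICM but 7.58% and 15.7% in TE, with H3K4me3 over 34.8 to 37.9% in ICM and 21.2 to 22.2% in TE. A second broad opening, chr22:43124351-43130250 (5900 bp), had H3K27ac over 97.5% and 75.4% in ICM and 43.2% and 61.9% in TE, with none of the other marks. By contrast chr21:33384001-33389650 (5650 bp) was fully covered by H3K4me3 in all 4 lists and to at least 92.0% by H3K27ac. The stretches chr16:821951-829800 (7850 bp) and chr27:6219451-6226000 (6550 bp) lay under all 4 marks in all 16 lists, active and repressive alike, and the former lay in the highest-scoring autosomal peak of each of the 6 ATAC lists, with scores of 11053 to 19149 against 6611 to 9899 for the next peak. No free-standing lineage-only stretch was marked in all 16 lists, and 32 shared stretches were. No region was excluded here for doubtful read mapping, and its part at such sites was not tested.

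At 2 other shared stretches acetylation belonged to 1 lineage. The longest shared stretch under H3K27ac of ICM alone was chr5:55697851-55700600 (2750 bp), at 96.4% and 67.3% in ICM and 0% in TE. H3K4me3 covered it to 85.5 to 100% in all 4 libraries, and H3K27me3 to 100% and 94.5% in TE and 94.5% and 0% in ICM. Its TE counterpart, chr14:12654801-12656850 (2050 bp), had H3K27ac over 51.2% and 53.7% in TE and 0% in ICM. H3K4me3 covered it to 92.7 to 100% in all 4 libraries. H3K27me3 covered all of it in both ICM libraries and none of it in TE, so that in ICM this open site combined the promoter mark with the Polycomb mark.

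Every autosome held stretches of all 3 classes, and chromosome 19 was the densest in each. Per Mb there were 5.74 (chromosome 27) to 11.1 (chromosome 19) free-standing ICM-only stretches, 4.62 (chromosome 6) to 10.5 (chromosome 19) free-standing TE-only stretches and 15.6 (chromosome 20) to 48.5 (chromosome 19) shared stretches. Over the 29 autosomes, TE-only density followed shared density more closely (Spearman's rho 0.81) than ICM-only density did (0.59), and the lineage-only densities followed each other weakly (0.31). These are descriptions over autosomes that share the same libraries. Free-standing ICM-only stretches outnumbered TE-only ones on 26 autosomes, and were fewer on chromosomes 24, 25 and 29.

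The balance between the lineages moved with chromosome length. The ICM-only part of the free-standing stretches ran from 45.6% on chromosome 25 (355 ICM-only, 423 TE-only), which is 42.4 Mb long, to 64.6% on chromosome 6 (992 against 544), which is 117.8 Mb long. Its rank correlation with length was 0.85 over the 29 autosomes. A like order was seen in the lists themselves. Expressed as a share of its own list's autosomal length, coverage did not overlap between the 3 ICM and the 3 TE libraries on 23 of 29 autosomes (79.3%). All 3 ICM libraries were higher on 10, all within chromosomes 1 to 15, and all 3 TE libraries were higher on 13, of which 11 lie within chromosomes 18 to 29.

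Chromosomes 1 and 24 mark the extremes of that ratio. On chromosome 1 the ICM lists had 4.64%, 4.70% and 4.65% of their length and the TE lists 4.19%, 4.21% and 4.29%, a ratio of means of 1.10. On chromosome 24 they had 1.91%, 1.96% and 1.96% against 2.25%, 2.20% and 2.29%, a ratio of 0.865. The libraries of the 2 lineages were apart on both chromosomes, though by small amounts. With 3 libraries per lineage the smallest exact two-sided p is 0.1, and no test was made. As a percent of each autosome covered, with list length left in, the lineages overlapped on all 29 (0.0% without overlap).

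An order by length was also met with whole blastocysts. Ratios of ATAC covered length were again taken between shares of list length. Their rank correlation with autosome length was 0.87 for ICM over TE, 0.84 for BL over TE and 0.61 for ICM over BL. The BL over TE ratio was lowest on chromosome 24 as well (0.897). The libraries overlapped on 20 of 29 autosomes for BL and TE and on 24 for ICM and BL. The ratio of ICM to TE covered length, each again as a share of its list's length, was then taken for the marks. Its rank correlation with autosome length was 0.81 for H3K9me3, 0.64 for either active mark and 0.15 for H3K27me3, each over 29 autosomes and 2 libraries per lineage. For H3K27ac the lowest ratio was again on chromosome 24 (0.757), the highest on chromosome 7 (1.14). The number of ATAC peaks with a shared stretch showed no such order (0.057). The score summed over those peaks, taken relative to each list, did in part (0.46), with chromosome 24 lowest (0.921). Base composition may move with chromosome length as well. Isolation method differed between ICM and TE, and depth may have differed between the lists. The part of all these in this result was not tested.

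**Figure D5:**
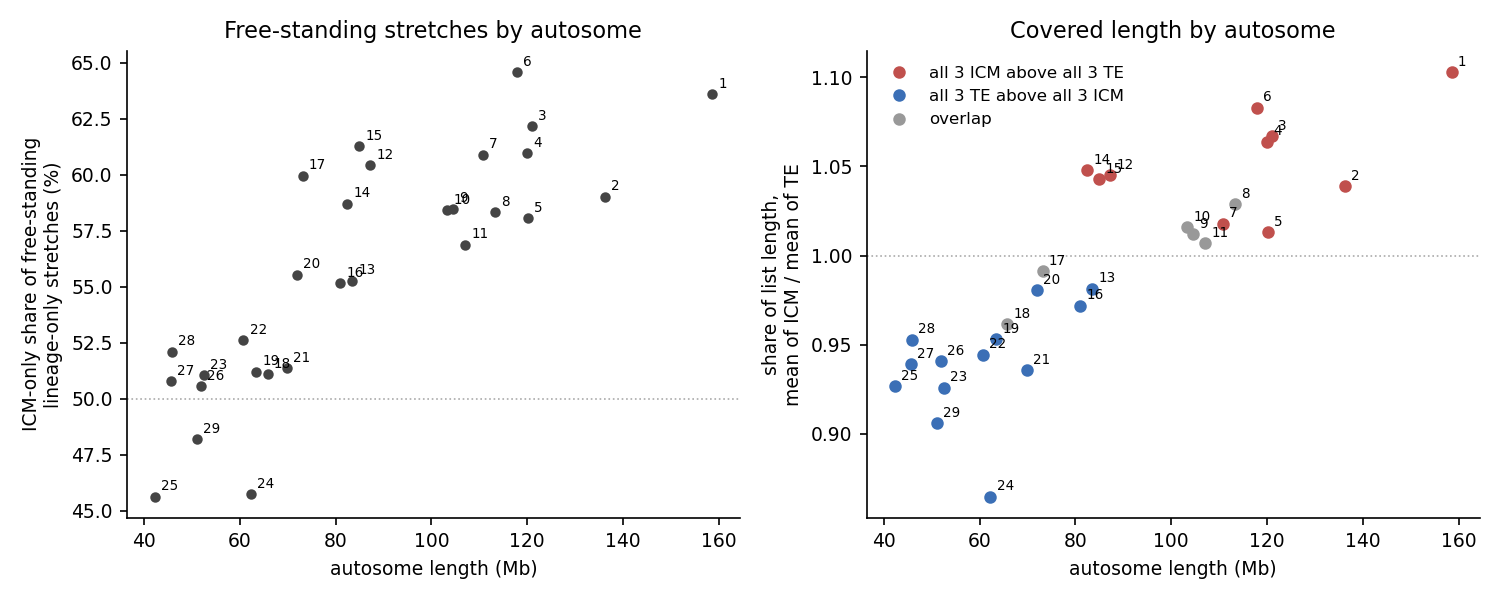
Left, ICM-only stretches as a percent of free-standing lineage-only stretches on each of the 29 autosomes (numbered points) against autosome length in Mb. Right, the mean share of list length of the 3 ICM lists over that of the 3 TE lists, coloured by whether the 3 libraries of one lineage all lie above those of the other; both rise with length, from 45.6% to 64.6% and from 0.865 to 1.10.

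Toward the distal ends of the autosomes the classes differed in density. In the last 5 Mb there were 10.0 free-standing TE-only stretches per Mb against 6.31 in the sequence between the 2 end segments, and 42.3 shared stretches against 24.4. ICM-only stretches changed less, with 9.57 against 8.73 per Mb. In the first 5 Mb all 3 classes were sparser than in the rest (5.99, 5.82 and 20.6 per Mb).

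Along the chromosomes, lineage-only openings lay near others of the same lineage. To keep pieces of one interrupted opening from counting as neighbours, distances were taken between merged open regions. A region with a free-standing ICM-only stretch had its nearest fellow at a median of 18.15 kb and the nearest region with a TE-only stretch at 80.7 kb. From TE-only regions the medians were 19.0 kb to the own class and 53.65 kb to the other. Within 10 kb a fellow of the same class was found for 38.8% of the ICM-only and 37.8% of the TE-only regions, and one of the other class for 8.055% and 10.97%. The classes differ in number here, with 19763 regions that held an ICM-only and 14243 that held a TE-only stretch. Distances to shared stretches were taken between stretches, not regions. The nearest shared stretch lay at a median of 11.6 kb from free-standing ICM-only and 8.40 kb from free-standing TE-only stretches. Between stretches, the nearest free-standing one of the own class lay at a median of 12.85 kb (ICM-only) and 11.05 kb (TE-only), pieces of one opening included.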

How the data were processed

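One peak list per library was used: ATAC of ICM, TE and whole blastocysts (3 each) and 4 histone marks of ICM and TE (2 each), grouped by their titles. Per the submitters' processing notes, the build was ARS-UCD1.2 and the tools included BWA 0.7.9a, SAMtools 1.9, Picard 2.26.10, cutadapt 1.8.3, Trim Galore 0.4.0 and SICER. The deposited lists are named for epic2, so the caller is not settled. The sources used here do not give its cutoff. The authors deposited a whole-number score per peak with no name, which ranked peaks within a list and nothing else. Depth is unknown, and longer lists may be deeper ones.

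All peaks on autosomes 1 to 29 were placed on the 50 bp grid of their edges, and autosome length was taken as the highest peak end. Bases under peaks were counted per class with Python 3.11.15, NumPy 2.4.6, pandas 2.3.3 and SciPy 1.17.1, and plots were drawn with matplotlib 3.10.9. The 2 joint tests were exact permutations of the lineage labels within marks. The steps were tested on simulated data. Named stretches were the 5 longest free-standing ones per class and the longest with H3K27ac of 1 lineage alone. For shared stretches, which have no flanks, all were eligible and the last rule was applied to each lineage. The classes and lists were chosen with earlier results of these data known. Alternatives covered width, list length, score, number of libraries, bins and left-out libraries. Genes, marker genes and sequence motifs were not analysed here, since the annotation at hand is of ARS-UCD2.0.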

Additional observations from a re-analysis of the deposited data

How the results depend on the processing

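The number of stretches depended on how libraries were combined. Left-out libraries gave 37228 to 43969 ICM-only, 37618 to 46296 TE-only and 63312 to 65661 shared stretches. Requiring 2 of 3 libraries gave 58567 and 64462 lineage-only stretches, and leaving out library 2 of both lineages, chosen after seeing the data, gave 52581 and 54740. The higher-scoring 50% of each list gave 16962, 16260 and 32113, bins of 1 kb gave 8302, 10449 and 36694, free-standing stretches numbered 21449 and 16171, and 19747 TE-only stretches had at least 200 bp. The ICM part of the lineage-only bases, 50.4%, changed sides in 6 alternatives: 48.8% with 2 of 3 libraries, 44.3% in 1 kb bins, 49.97% without ICM library 2, 44.6% without TE library 1, 44.7% without TE library 3 and 49.8% without library 2 of both. With 1 list left out it ranged from 44.6 to 55.2%.

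For the marks, the joint exact p at lineage-only stretches was 0.0123 to 0.0247 with 1 library left out, and at shared stretches 0.0123 to 0.037. Mark lists shortened to one length gave 0.0864 at shared stretches and turned H3K27ac there to 0.041. With a replicate block, exchanging labels between libraries of the same number alone, p was 0.0625 at lineage-only stretches, the smallest possible under the block, and 0.125 at shared stretches. No label says that equal numbers share a culture or day. For ATAC, deviations from the lineage means correlated weakly, at 0.020, 0.075 and 0.057 for equal numbers and -0.065 to 0.019 for unequal ones. Each library correlated best with its own number, so whether numbers pair the ATAC libraries is not settled. The mark libraries were not checked for such pairing. Depth is unknown, isolation method and lineage cannot be told apart, and no gene annotation of this build was used. The cause of these changes was not tested.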

Other observations

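Free-standing stretches were also counted in 2502 windows of 1 Mb, of which 12 held none. The median per window was 7 ICM-only and 4 TE-only stretches, and the 2 counts had a Spearman's rho of 0.42 over windows. The ICM-only class had 10 or more stretches and at least 3 times those of the TE-only class in 313 windows. The TE-only class did so in 106, with the floor of 10 further above its median. The windows with the most stretches of each kind were picked by these counts, so they are a description. On the ICM side they were chr12:69000001-70000000 (69 ICM-only, 1 TE-only), chr15:56000001-57000000 (40 and 7) and chr2:104000001-105000000 (38 and 3). Of the ICM-only bases in the first of these, H3K27ac covered 73.6% and 72.9% in ICM and 0.758% and 0% in TE. The chromosome 2 window stood apart in H3K9me3, which covered 28.3% and 48.1% of its ICM-only bases in ICM and 13.8% and 18.5% in TE.

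On the TE side the windows were chr24:57000001-58000000 (65 TE-only, 7 ICM-only), chr14:1-1000000 (56 and 1) and chr25:41000001-42000000 (55 and 4), on the ARS-UCD1.2 build. On chromosome 24, H3K27ac covered 56.8% and 58.8% of the TE-only bases in TE and 3.37% and 0.842% in ICM, and H3K27me3 covered 23.8% and 27.8% in ICM against 11.4% and 11.5% in TE. The windows of chromosomes 14 and 25 lie at chromosome ends and were rich in H3K4me3, which covered 45.6% and 33.5%, and 41.2% and 26.0%, of their TE-only bases in TE, against 1.14 to 2.58% in ICM. Their H3K27ac was less one-sided, at 56.9% and 59.1% in TE and 26.6% and 22.0% in ICM on chromosome 14. In whole blastocysts these TE-only bases were covered to 20.2%, 48.2% and 78.8% on chromosome 14 and to 14.1%, 39.4% and 59.2% on chromosome 25, lowest in library 1 and highest in library 3.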
